A study of Mus musculus with 2 samples.

Results

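The S100 genes encode small calcium-binding proteins, and 9 of them were examined in mouse lungs bearing Lewis lung carcinoma: S100a1, S100a4, S100a6, S100a8, S100a9, S100a10, S100a11, S100a13 and S100b. They were taken by symbol from the platform annotation of the array, with every probe set that carried the symbol. Of the 9 genes, 8 had a probe set annotated to them alone, 12 probe sets in all, out of 18193 genes with such a probe set. Of these, 7 exceeded the intensity floor of an array or of both and were counted as measured, out of 11959 measured genes. S100b lay below the floor on both arrays, and the probe set that names S100a11 also names the pseudogene S100a11-ps and Gm12854, so no value is given to S100a11 itself.

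The TDAG8 lungs came from C57BL/6 mice, 6 to 8 weeks old at injection, that had received TDAG8-overexpressing Lewis lung carcinoma (LLC) cells, and the control lungs from mice of the same strain and age that had received vector-transfected LLC cells. LLC is a transplantable mouse lung carcinoma line that forms lung tumours when its cells are injected into a vein, and TDAG8, encoded by Gpr65, is a receptor that senses extracellular protons. In both groups 500000 cells in 200 µL entered the tail vein, whole lungs were taken on day 19, and RNA of 10 mice was pooled onto 1 array, so every value comes from a mixture of tumour and host cells. The labels name neither the promoter that drove TDAG8 nor whether the transfected cells were a clone or a pool. With 1 array per group no test was possible, no value has an error between mice, and all differences describe these 2 pooled RNAs.

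S100 proteins work as dimers whose shape changes when calcium binds to a pair of EF-hand loops, which lets them grip target proteins inside the cell. Several are also released and act on cell surface receptors such as the receptor for advanced glycation end products, encoded by Ager, which is abundant in lung. S100a4, S100a6, S100a10 and S100a11 are known from motile, mesenchymal and tumour cells. S100a8 and S100a9 form calprotectin, a major cytosolic protein of neutrophils that monocytes also carry. S100a1 is best known from heart muscle, S100b from glia and fat cells, and S100a13 from the release of the growth factor Fgf1.

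The values are linear intensities as deposited, and fold differences are ratios of TDAG8 over vector control lungs after raising dim signals to a floor, 24.3 units on the TDAG8 array and 26.3 on the control array, and centring on the median gene, which lay at -0.06 on the log2 scale before centring. Intensities of different probe sets are not on a common scale, so levels are compared within a probe set, and the summed intensity of a marker list is weighted towards its bright probe sets. Gpr65 itself had 73.9 units in TDAG8 lungs and 32.3 in control lungs, close to the floor, and whether its probe set reads the transfected sequence was not tested. All 10 alveolar type 1 cell genes listed as a check of the tissue were above the floor on both arrays. As a measure of technical spread, the log2 ratios of probe sets for the same gene had a pooled SD of 0.273 over 4775 genes, and of 0.161 over 422 genes with probe sets above 500 units on both arrays. That spread covers differences between probes only, not between arrays or mice.

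The promoters of the members that differed most and least between the groups are shown, together with the joint start region of S100a13 and S100a1. These members are close neighbours in the genome and nevertheless had unequal ratios. Each sequence is the RefSeq promoter in build GRCm38.p6, 300 bases from 250 before to 50 after the annotated start of the gene, given 5′ to 3′ on the strand of the gene. The promoters of 8 of the 9 genes were in the RefSeq table, and that of S100a10, a higher member, was not. Not printed are those of S100a11 and S100b, which have no ratio of their own, and the rest of the S100a1 window. The windows are chr3:90603520-90603819 on the plus strand for S100a4, chr3:90612644-90612943 on the plus strand for S100a6, chr3:90668821-90669120 on the plus strand for S100a8, chr3:90695672-90695971 on the minus strand for S100a9 and chr3:90514185-90514484 on the plus strand for S100a13. Capitals mark matches to any of 5 motifs searched on both strands.
S100a4: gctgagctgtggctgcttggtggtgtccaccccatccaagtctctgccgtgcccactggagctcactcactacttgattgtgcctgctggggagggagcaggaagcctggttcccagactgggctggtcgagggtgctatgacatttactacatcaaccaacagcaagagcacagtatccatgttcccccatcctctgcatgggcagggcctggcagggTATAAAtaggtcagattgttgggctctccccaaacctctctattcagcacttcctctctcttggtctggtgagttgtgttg
S100a6: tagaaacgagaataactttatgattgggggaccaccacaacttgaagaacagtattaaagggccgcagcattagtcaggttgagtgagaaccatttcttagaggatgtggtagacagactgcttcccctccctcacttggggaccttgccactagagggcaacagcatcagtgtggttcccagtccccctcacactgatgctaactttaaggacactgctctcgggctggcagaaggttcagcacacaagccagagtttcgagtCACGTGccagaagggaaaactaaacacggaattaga
S100a8: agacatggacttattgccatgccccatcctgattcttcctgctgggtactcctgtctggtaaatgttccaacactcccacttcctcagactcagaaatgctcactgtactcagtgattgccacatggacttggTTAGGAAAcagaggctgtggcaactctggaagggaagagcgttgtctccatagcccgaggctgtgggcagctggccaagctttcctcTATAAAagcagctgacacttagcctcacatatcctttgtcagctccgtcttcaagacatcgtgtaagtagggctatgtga
S100a9: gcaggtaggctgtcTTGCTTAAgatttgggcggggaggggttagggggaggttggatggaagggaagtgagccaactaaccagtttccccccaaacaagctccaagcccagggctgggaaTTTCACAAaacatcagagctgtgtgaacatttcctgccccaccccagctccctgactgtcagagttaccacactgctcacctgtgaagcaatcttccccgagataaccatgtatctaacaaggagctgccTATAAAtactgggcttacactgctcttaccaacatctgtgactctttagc
S100a13: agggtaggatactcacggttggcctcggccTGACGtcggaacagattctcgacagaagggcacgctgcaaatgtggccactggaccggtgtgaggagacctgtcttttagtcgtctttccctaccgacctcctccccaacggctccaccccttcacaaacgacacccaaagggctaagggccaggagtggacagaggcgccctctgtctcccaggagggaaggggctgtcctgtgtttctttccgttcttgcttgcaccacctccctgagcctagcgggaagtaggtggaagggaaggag

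The motifs searched were AP-1 (TGANTCA), a short form of the cAMP response element (TGACG), the core of the hypoxia response element (ACGTG), a C/EBP site (TTNNGNAA) and the TATA box (TATAAA), the last added after the sequences had been seen. Among 32851 RefSeq promoters of this length, 7.81% held the AP-1 letters, 20.8% the short cAMP element, 19.6% the hypoxia core, 40.7% the C/EBP letters and 13.6% the TATA letters. S100a4 held the TATA letters at bases -31 to -26 and none of the other motifs. S100a6 held the hypoxia core within the palindrome CACGTG at bases 15 to 20 after the start, so the match was found on both strands. The C/EBP letters stood at -117 to -110 in S100a8 and at -236 to -229 and -130 to -123 in S100a9. S100a8 held the TATA letters at -30 to -25, and in S100a9 they began at base 1 of the annotated transcript. In S100a13 the short cAMP element lay at -220 to -216. No match in these 5 promoters overlapped a match of another motif.

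S100a4, also called metastasin or Fsp1, which binds nonmuscle myosin and is known for cell motility, differed more than any other member. Its probe set had 3399 units in TDAG8 lungs and 808 units in control lungs. The log2 ratio was 2.13, or 4.38-fold higher in TDAG8 lungs, and 59 of the 11959 measured genes had a higher ratio. Among the 1507 genes above 500 units on both arrays, 0 had a higher ratio than S100a4. That set leaves out genes that were dimmer in control lungs only. Among them is Cdc20, with 1198 units in TDAG8 lungs, 232 in control lungs and a log2 ratio of 2.43. In whole-lung RNA, more cells of a type and more RNA per cell cannot be told apart. It was read by 1 probe set, so no second probe set could be set beside it.

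S100a6, or calcyclin, a protein of growing cells that binds annexins and the calcyclin-binding protein Cacybp, was also higher. It had 4015 units in TDAG8 lungs and 2305 units in control lungs, a log2 ratio of 0.86 and 1.81-fold. Of all measured genes, 888 had a higher ratio. Its single probe set carries a suffix that marks probes matching several transcripts, and the platform annotation gives it to S100a6 alone.

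S100a10, the p11 subunit that joins annexin A2 into a tetramer at the cell membrane and does not depend on calcium, was read by 3 probe sets. The first had 2002 units in TDAG8 lungs and 1205 in control lungs, a log2 ratio of 0.79 and 1.73-fold. The second, whose suffix marks shared sequence, had 1658 units in TDAG8 lungs and 941 in control lungs, a log2 ratio of 0.87. The third, nearer the floor, had 60.1 units in TDAG8 lungs and 71.6 in control lungs, a log2 ratio of -0.20. The pair of bright probe sets thus differed by less than the spread between probe sets of a gene, and the dim probe set pointed the other way. With the mean over the 3 probe sets the log2 ratio of S100a10 was 0.51.

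The probe set shared by S100a11, its pseudogene and Gm12854 had 3493 units in TDAG8 lungs and 3590.3 in control lungs. Its log2 ratio of 0.02 belongs to that mixture and is counted in no list. S100a11, or calgizzarin, is a partner of annexin A1.

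The 3 mesenchymal or tumour members with a value of their own were all above 0, with a median log2 ratio of 0.86 and a range of 0.79 to 2.13. S100a4 exceeded S100a6 by 1.27 and S100a10 by 1.34 in log2 ratio, whereas S100a6 and S100a10 differed by 0.07. These 3 genes therefore fell into a single large ratio and a close pair. With only probe sets whose suffix marks neither several transcripts nor shared sequence, S100a6 dropped out. The median of S100a4 and S100a10 was then 1.48.

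**Figure D1:**
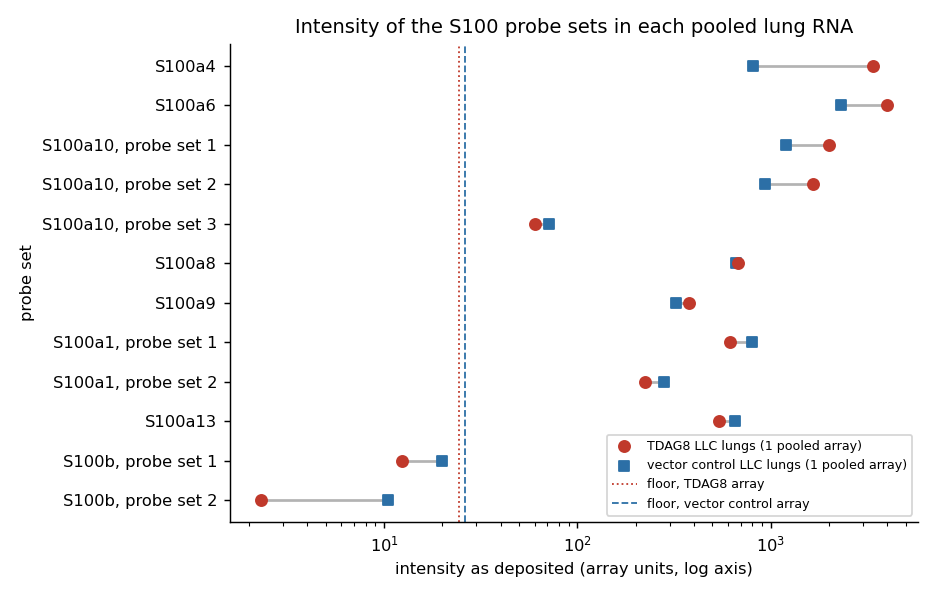
Deposited intensity of each S100 probe set on a log axis, with red circles for the pooled TDAG8 LLC lungs and blue squares for the pooled vector control LLC lungs (1 array each, no error bars), and the intensity floor of each array as a vertical line. Among probe sets above the floors S100a4 shows the widest gap, 3399 against 808 units, the squares and circles of S100a8 nearly coincide, and both S100b probe sets lie left of the floors.

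The calprotectin genes were close to the median gene. S100a8 had 678 units in TDAG8 lungs and 659 in control lungs, a log2 ratio of 0.10 or 1.07-fold. Its only probe set also carries a suffix that marks probes matching several transcripts. S100a9 had 377 units in TDAG8 lungs and 324 in control lungs, a log2 ratio of 0.28 or 1.21-fold. Both proteins are made together and assemble with each other, and their log2 ratios differed by 0.18. Of all measured genes 5047 had a higher ratio than S100a8 and 3477 a higher ratio than S100a9.

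The median log2 ratio of the mesenchymal or tumour members exceeded that of the calprotectin genes by 0.67. S100a4 stood 2.03 above S100a8 and 1.85 above S100a9, S100a6 stood 0.76 and 0.58 above them, and S100a10 stood 0.69 and 0.51 above them. When the ratios of a gene were averaged over its probe sets, S100a10 stood 0.39 above S100a8 and 0.21 above S100a9, the second being less than the SD of 0.273 between probe sets of a gene. The differences come from 1 array per group and were not tested.

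The remaining members had negative log2 ratios or were not detected. The ratio of S100a13 was smaller in size than that of S100a9. S100a1, the heart muscle member that regulates calcium release channels, was read by 2 probe sets. The first, whose suffix marks probes matching several transcripts, had 615 units in TDAG8 lungs and 806 in control lungs, a log2 ratio of -0.33. The second had 224 units in TDAG8 lungs and 282 in control lungs, a log2 ratio of -0.28. S100a13 had 539 units in TDAG8 lungs and 653 in control lungs, a log2 ratio of -0.22 or 1.16-fold lower. Neither gene reached 2-fold, and S100a1 and S100a13 differed from each other by 0.11 in log2 ratio. The genes lie head to head on opposite strands: their promoter windows share 204 bases, the stretch that ends the S100a13 sequence above and, on the opposite strand, belongs to S100a1.

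S100b, the glial member, was below the floor in both groups. Its probe sets had 2.3 and 12.4 units in TDAG8 lungs, against 10.5 and 20.0 units in control lungs. No fold is given at these levels. With the floor lowered to the 30th percentile of each array, the probe set with 12.4 and 20.0 units passed on both arrays, with a log2 ratio of -0.61.

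Of the 7 measured members, 1 was at least 2-fold higher in TDAG8 lungs, S100a4, where 5.40% of all measured genes were. None of the 7 was at least 2-fold lower, where 1.21% of all measured genes were. Among genes above 500 units on both arrays, a set without S100a9, the 2-fold higher share was 1.46%. In all, 5 of the 7 members had log2 ratios above 0, where 49.9% of all genes did. The members' median log2 ratio was 0.28, beside -0.0017 over all measured genes, with the central range between quartiles from -0.33 to 0.35. S100a4, S100a6 and S100a10 lay above that range, S100a8, S100a9 and S100a13 lay inside it, and S100a1 lay at its lower edge.

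**Figure D2:**
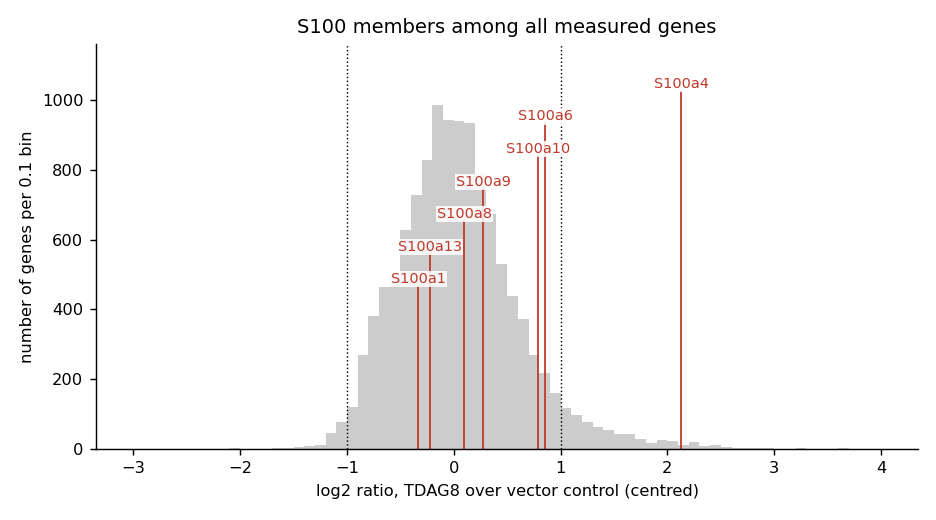
Histogram of log2 ratios, TDAG8 over vector control lungs, for all 11959 measured genes in bins of 0.1, with the 7 measured S100 members as red lines whose heights only separate the labels, and dotted lines at 2-fold. S100a4 at 2.13 lies in the sparse upper tail, S100a6 and S100a10 lie below the 2-fold line, and the other members lie in the body of the distribution.

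All members except S100b, which is on chromosome 10, are on mouse chromosome 3. S100a11 and S100a10 form a block there that is apart from the cluster of S100a1 to S100a9. In that cluster S100a4 is preceded by S100a3 and S100a2 and followed by S100a5 and S100a6. S100a3 had 26.3 units in TDAG8 lungs, level with the control floor, and 5.4 units, below the floor, in control lungs. Its bound of 1.04-fold therefore comes from the centring alone. S100a5 had 8.3 units in TDAG8 lungs and 7.2 units in control lungs, below the floor on both arrays. S100a2 had no probe set of its own. Past S100a5, the next measured gene was S100a6. S100a16, a broadly expressed member between S100a14 and S100a3, had 692 units in TDAG8 lungs and 932 in control lungs, a log2 ratio of -0.37, and its second probe set gave -0.45. S100a14 was below the floor, with 19.9 units in TDAG8 lungs and 22.9 in control lungs. Along the cluster the ratios thus were below 0 from S100a1 to S100a16 and above 0 from S100a4 to S100a9, wherever both arrays gave a signal. Of the flanking genes, Chtop, next to S100a1, was at 0.10, Snapin at -0.34 and Ilf2 at 0.62.

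**Figure D3:**
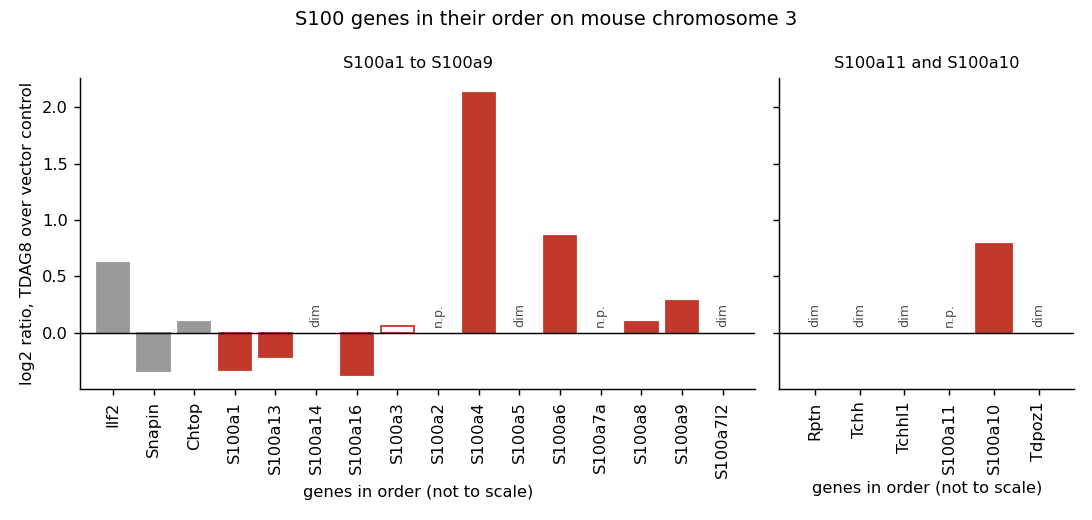
Log2 ratio between TDAG8 and vector control lungs (TDAG8 over control) for genes in their order on mouse chromosome 3, S100 genes in red and flanking genes in grey, spaced evenly and not to scale. The open bar is a lower bound, "dim" marks genes below the floor on both arrays and "n.p." genes with no probe set of their own. S100a4 at 2.13 stands between genes without a value, and S100a10 at 0.79 is the only measured gene of its block.

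Outside chromosome 3, S100g on the X chromosome, which encodes calbindin-D9k, a carrier of calcium in the intestinal epithelium, was lower in TDAG8 lungs. It had 188 units in TDAG8 lungs and 447 in control lungs, a log2 ratio of -1.19 or 2.28-fold lower. It was the only S100 gene at least 2-fold lower among those measured, where 1.21% of all measured genes were. Of the 7 S100 genes listed beside the members, 5 had a probe set of their own and 3 were measured, with a median log2 ratio of -0.37.

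Genes of proteins that bind S100 proteins inside the cell lay on both sides of 0. Of 12 listed partners 10 were measured, 5 above and 5 below 0, with a median log2 ratio of 0.01. At least 2-fold higher was 1 of the 10, where 5.40% of all measured genes were. This was Cacybp, which binds S100a6 and takes part in the breakdown of beta-catenin. It had 1137 units in TDAG8 lungs and 484 in control lungs, a log2 ratio of 1.29 or 2.45-fold. None was 2-fold lower. Anxa2, the partner of S100a10, had 3225 units in TDAG8 lungs and 2693 in control lungs, a log2 ratio of 0.32. A dim second Anxa2 probe set, with 40.0 units in TDAG8 lungs and 41.2 in control lungs, gave 0.01. Anxa1, the partner of S100a11, had 3103 units in TDAG8 lungs and 2174 in control lungs, a log2 ratio of 0.57. The membrane scaffold gene Ahnak, which binds the complex of S100a10 and annexin A2, was at -0.17. Myh9, the nonmuscle myosin heavy chain that S100a4 binds, had 1448 units in TDAG8 lungs and 1624 in control lungs, a log2 ratio of -0.11. The other 3 of its probe sets that passed the floor on each array ranged from -0.10 to 0.16. Fgf1, released with S100a13, had 365 units in TDAG8 lungs and 677 in control lungs, a log2 ratio of -0.83, and Anxa6 was at -0.58.

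The receptors and their adaptors were all measured, 11 of 11, with 6 above and 5 below 0, none 2-fold different and a median log2 ratio of 0.06. Ager had 4397 units in TDAG8 lungs and 6541 in control lungs, a log2 ratio of -0.52, and its second probe set gave -0.63. Tlr4, a receptor of calprotectin, had 85.4 units in TDAG8 lungs and 62.0 in control lungs, a log2 ratio of 0.52. Its second probe set gave 0.48, and another, above the floor in control lungs only, gave at most -0.18. The coreceptor gene Ly96 was at 0.24 and the adaptor gene Myd88 at 0.48. Emb, or embigin, also in the receptor list, had 1355 units in TDAG8 lungs and 801 in control lungs, a log2 ratio of 0.82. Its second probe set gave 0.48. Bsg and Nptn, related receptors of S100a9 and S100a8, were at 0.06 and -0.07. The scavenger receptor gene Cd36 was at -0.50, and the adhesion receptor genes Alcam and Mcam were at -0.37 and -0.23.

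**Figure D4:**
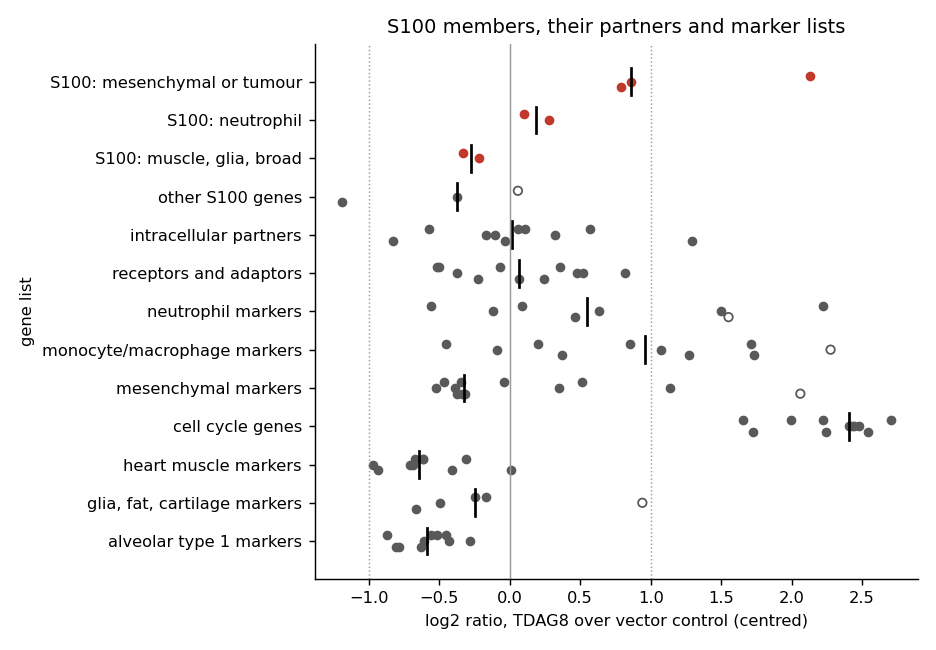
Log2 ratio between TDAG8 and vector control lungs (TDAG8 over control) for each measured gene of each list, S100 members in red, other genes in grey, open circles for genes above the floor on 1 array only (bounds) and a black bar for the list's median. The cell cycle genes lie between 1.65 and 2.70, a range that holds S100a4. The wider ranges of the neutrophil and the monocyte/macrophage markers hold it too. The heart muscle and alveolar type 1 lists lie mostly below 0, and the partner and receptor lists straddle 0.

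Markers of the cells that carry these proteins were read beside the members, as measured facts whose part in the results was not tested. The share to set beside each count of higher markers is 5.40%, that of all measured genes at least 2-fold higher. Each of the 11 measured cell cycle genes passed 2-fold in the higher direction, their median log2 ratio was 2.41, and their summed intensity was 6776 units in TDAG8 lungs and 1478 in control lungs. Bub1, a spindle checkpoint kinase, was at 2.70, Cdk1, the kinase of mitotic entry, at 2.54, Aurka, a kinase of the spindle poles, at 2.48 and Cdc20, an activator of the anaphase-promoting complex, at 2.43. The ratio of S100a4 lay within the range of these genes, from 1.65 to 2.70, and those of S100a6 and S100a10 lay below it. The wider range of the measured neutrophil markers, -0.56 to 2.22, also held S100a4, S100a6 and S100a10. So did that of the monocyte and macrophage markers, -0.46 to 2.28, the upper end being a lower bound.

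The 12 mesenchymal markers went both ways, with 4 above and 8 below 0, a median log2 ratio of -0.33 and a mean of 0.10 of opposite sign. Their summed intensity was 17047 units in TDAG8 lungs and 16506 in control lungs. Without the brightest gene, Vim, the sum was 10431 units in TDAG8 lungs and 11667 in control lungs, and thus lower in TDAG8 lungs. At least 2-fold higher were Lum, a proteoglycan of the matrix, at 1.14, and Twist1, a transcription factor of mesenchyme that was below the floor in control lungs, at least 4.17-fold. Vim, the intermediate filament of mesenchymal cells, was at 0.51, and the pericyte receptor gene Pdgfrb at -0.53. The fibroblast collagen genes Col1a1 and Col1a2 were at -0.38 and -0.46 and Fn1 was at 0.35, all named after their values were seen.

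Of 16 neutrophil markers other than S100 genes, 14 had a probe set of their own and 8 were measured. The granule genes Mpo, Elane, Ctsg, Camp and Ngp and the chemokine receptor gene Cxcr2 were below the floor on both arrays. The summed intensity of the list was 1803 units in TDAG8 lungs and 1568 in control lungs, and the median log2 ratio of the 8 was 0.55. At least 2-fold higher were 3 of them, Clec4d at 2.22, Il1b 2.82-fold and Padi4, which was below the floor in control lungs, at least 2.93-fold. Clec4d and Il1b are also expressed by monocytes and macrophages, whose 10 measured markers had a median log2 ratio of 0.96, 5 members past 2-fold in the higher direction, and a summed intensity of 8922 units in TDAG8 lungs and 8584 in control lungs. In the macrophage list Msr1 was at least 4.84-fold higher, Itgam was at 1.73 and Fcgr1 at 1.71, while Lyz2 was at -0.09. Lyz2 made up most of the summed intensity, and without it the sum was 2919 units in TDAG8 lungs and 1934 in control lungs. Of the other measured neutrophil markers, Csf3r, the receptor gene for G-CSF, was at 0.63, Mmp8 at 0.47, Mmp9 at 0.09, Lcn2, a granule protein of neutrophils and of inflamed epithelium, at -0.12 and Ltf at -0.56. In all, 5 of the 8 lay above S100a9.

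Of the 10 heart muscle genes 9 were below 0, none by 2-fold, with a median log2 ratio of -0.64 and a summed intensity of 3058 units in TDAG8 lungs and 5020 in control lungs. Myh7 was at -0.97, Tnni3 at -0.93 and Actc1 at -0.71, each further below 0 than S100a1. Actn2, at -0.31, and Nppa, at 0.01, were not. The 10 alveolar type 1 genes were also all below 0, with a median of -0.58, a summed intensity of 15543 units in TDAG8 lungs and 22651 in control lungs, with Col4a4 at -0.87, the chloride channel gene Clic5 at -0.81 and the matrix proteoglycan gene Spock2 at -0.78. Ager, counted among the receptors, belongs to this list too. Of the genes of glia, fat and cartilage listed for S100b, 8 of 11 had a probe set of their own and 5 were measured, with a median of -0.25 and a summed intensity of 879 units in TDAG8 lungs and 1135 in control lungs. The astrocyte gene Gfap and the cartilage genes Acan and Col2a1 were below the floor on both arrays, as S100b was, while the fat cell genes Adipoq and Fabp4 were at -0.67 and -0.25 and the myelin gene Mbp was at -0.50. Sox9, a transcription factor of cartilage and of lung progenitors, was below the floor in control lungs and at least 1.92-fold higher in TDAG8 lungs.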

How the data were processed

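Per the labels' protocols, 2 µg of pooled total RNA was turned into biotin-labelled cRNA by the Affymetrix procedure. The deposited values are linear intensity values, 1 per probe set, which the authors had scaled to a trimmed mean of 100 per array. Which software made them, and on which genome build, is not stated in the labels or the table. The table had 2 columns, both matched to a sample. Control probe sets (64) were set aside, leaving 45037, of which 34945 had 1 gene symbol in the platform annotation, 932 several and 9160 none. Of the 34945, 34741 matched a gene identifier in RefSeq (GRCm38.p6) for current symbols. A gene with several probe sets was represented by that of highest mean log2 intensity. Values under the array's 50th percentile were raised to it, ratios involving a raised value are bounds, and genes below it on both arrays were left out. Log2 ratios were centred on the median over 11029 genes, because the column medians differed by -0.11, more than 0.1. No test was run, and higher or lower was counted at 2-fold. The members and lists were chosen with earlier results of these data known. All members were named, with measured genes of the partner, receptor and other S100 lists, and from marker lists the 3 largest differences and the brightest gene; other markers named were picked after their values were seen. The procedure was tested on simulated data. Work was done in Python 3.11.15 with pandas 2.3.3, numpy 2.4.6 and statsmodels 0.14.6.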

Additional observations from a re-analysis of the deposited data

How the results depend on the processing

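The ratios of the 7 measured members were recomputed under 8 alternatives. These were uncentred ratios, quantile-normalized arrays, a loess curve (span 0.3), a lower floor (30th percentile) and a higher one (65th). The others were an offset in place of the floor, the mean over probe sets, and probe sets whose suffix marks neither several transcripts nor shared sequence. All 54 values obtained kept their sign and their side of 2-fold, S100a4 ranging from 2.05 to 2.15 and S100a8 from 0.02 to 0.12. These values are not independent checks. For these members, uncentred ratios and both floor changes could only move every ratio by a shared constant. The mean over probe sets did the same for members with a single probe set. S100a4 minus S100a8 therefore stayed at 2.03 under each of these. Under the last of the 8 alternatives S100a6 and S100a8 had no probe set left. The median of the mesenchymal or tumour members was then 1.48 and its excess over the neutrophil members was 1.18. S100a10 was at 0.51 with the mean over probe sets. Counting the shared probe set as S100a11, an alternative chosen after seeing the data, put that median at 0.82 and the excess at 0.64. Genes at least 2-fold higher numbered 421 with the floor at the 65th percentile, against 646. Genes at least 2-fold lower numbered 350 with the floor at the 30th percentile, 68 at the 65th, 32 with an offset and 78 with the mean over probe sets, against 145. With 1 array per group, signal over the floor limits the dim genes and nothing measures the spread between mice.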

Other observations

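S100pbp, which encodes a nuclear protein that binds the S100P protein in human cells and is no S100 gene itself, was noticed after its values were seen. Its first probe set had 172 units in TDAG8 lungs and 116 in control lungs, a log2 ratio of 0.62, and its second had 41.1 units in TDAG8 lungs and 38.6 in control lungs, a log2 ratio of 0.15.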
